A study of Mus musculus with 6 samples.

Results

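The 43 genes described here belong to the amino acid response of mouse cells. They comprise ATF4, factors and enzymes that it regulates, the serine and one-carbon pathway, amino acid transporters and cytosolic tRNA synthetases. They were chosen by gene function, from a list of symbols with no threshold on measured values, and all 43 were found among the 48440 gene rows of the count table. The cells were mouse ovarian surface epithelial cells, the layer that covers the ovary, harvested 7 days after transduction with an adenovirus. Control cells received Ad-GFP, which carries GFP alone, and have the genotype label WT (3 libraries). Knockout cells received Ad-Cre-GFP, which carries the recombinase Cre with GFP, and have the genotype label Lats1/2 knockout (3 libraries). The kinases LATS1 and LATS2 of the Hippo pathway restrain the coactivators YAP and TAZ. Both groups carried virus and GFP. The sources used here do not give the strain, the age of the animals, the alleles or exons that Cre removed, or whether libraries came from separate cultures. Poly(A)-enriched RNA was sequenced. Coordinates are GRCm38.

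ATF4 is a transcription factor whose protein is made when the initiation factor eIF2 is phosphorylated by kinases that sense amino acid shortage, endoplasmic reticulum stress, double-stranded RNA or heme shortage. Upstream reading frames in its mRNA control its translation, so the transcript counts here do not measure ATF4 protein. With C/EBP partners it binds a composite element in genes for amino acid synthesis, amino acid uptake and tRNA charging. Serine made from a glycolytic intermediate feeds folate-bound carbon units, which are used to build purines and thymidylate.

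Serine and folate enzymes and tRNA synthetases were higher in knockout cells. Of the 9 transcription factors and stress effectors of the ATF4 pathway, 1 was higher, 4 were lower and 4 were not called. The share lower was 44.4%, beside 35.8% of all genes tested, and these counts changed when Ad-GFP replicate 2 was left out. Of the 43 members, 42 passed the filter on low counts. Among these, 26 rose and 7 fell at an adjusted p under 0.05 in edgeR's quasi-likelihood test, and 9 were not called. Over all 14811 genes tested, 34.0% rose and 35.8% fell, and 69.8% were called in either direction. Most genes tested were thus called in one direction or the other. A called rise of at least 2-fold was found for 6 members, against 6.25% of all genes, and no member had a called fall of at least 2-fold, against 7.56% of all genes. Log2 changes are knockout over control, with ± for the standard error. The median log2 change of the tested members was 0.37, beside -0.01 over all genes tested. Knockout and control libraries did not overlap for 34 members, with the knockout above for 27 and below for 7. Over all genes they did not overlap for 73.0% (35.4% above and 37.6% below). In bulk RNA, fewer cells of a type and less RNA per cell cannot be told apart.

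The libraries held 18690235 to 30304033 counts, and every knockout library was deeper than every control library. Lats1 fell from 159 ± 8.74 to 37.1 ± 1.36 CPM (SD, n = 3 in each group here and below) and Lats2 from 129.5 ± 2.16 to 98.7 ± 1.97 CPM, leaving 23.3% and 76.2% of the control level. Neither gene overlapped between the groups (log2 changes -2.10 ± 0.04, adjusted p = 5.79e-20 and -0.39 ± 0.03, adjusted p = 3.82e-10, edgeR). CPM are counts scaled to 1000000 per library after correction of library sizes. On principal component 2, which held 3.15% of the variance, Ad-GFP replicate 3 lay away from Ad-GFP replicates 1 and 2. All 13 surface epithelium and mesothelium markers were tested, of which 6 rose and 7 fell, and their summed level was 4550 to 4584 CPM in the controls and 4702 to 4741 CPM in the knockout. Stromal fibroblast markers summed to 379.9 to 398 CPM in the controls and 271 to 291 CPM in the knockout, with Lum at 0 in every library. Most of this sum was Col1a1 (291 ± 10.7 and 261 ± 9.66 CPM) and Dcn (93.0 ± 1.21 and 24.7 ± 2.16 CPM). Col1a2 had 4 counts over the controls and 6 over the knockout libraries. Immune markers summed to 11.1 to 13.4 and 6.53 to 7.14 CPM, with Adgre1 at 0, and endothelial markers to 3.05 to 3.15 and 10.02 to 11.5 CPM, with Tie1 at 0. Most of the endothelial sum was Flt1, with 183 counts over the controls and 734 over the knockout libraries, and Kdr, with 4 and 173. Pecam1 had 14 and 10 counts, Cdh5 0 and 3, and Tek 3 and 17. Granulosa markers summed to 3.26 to 3.85 and 2.99 to 4.08 CPM, with Fshr and Cyp19a1 at 0. Within this sum Foxl2 (10 and 63 counts) and Amh (61 and 179) rose and Inha (168 and 76) fell. The part of other cell types in the results below was not tested. Deletion of Lats1 and Lats2, exposure to Cre and any difference between the cultures cannot be told apart in this design.

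**Figure D1:**
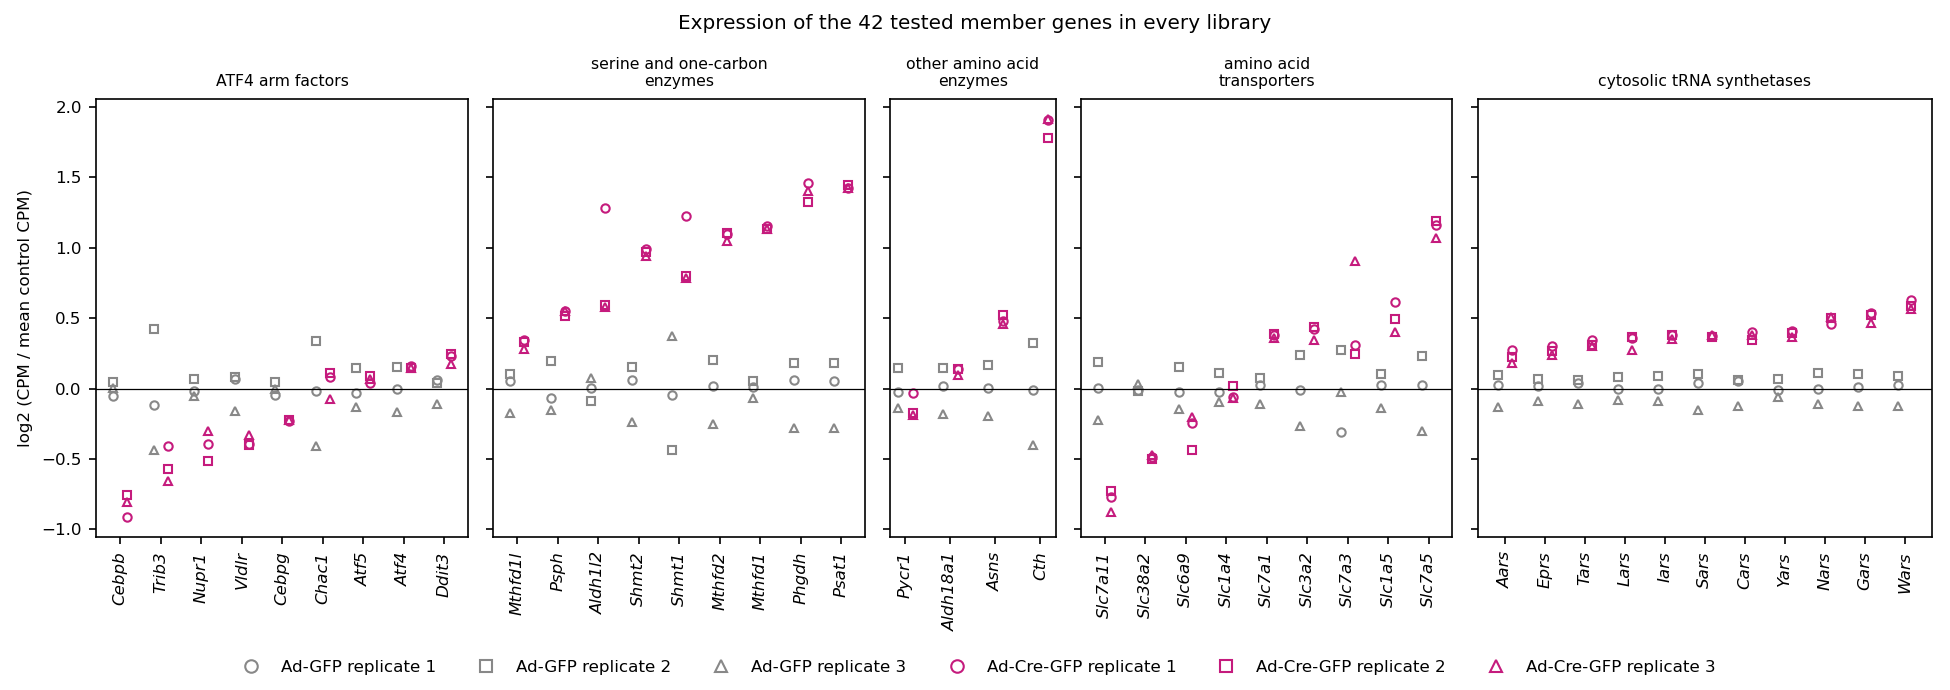
Each point is a library, as log2 of its CPM over the mean control CPM of that gene, for the 42 tested members in 5 role groups (grey, Ad-GFP; magenta, Ad-Cre-GFP; symbols mark the replicate). The knockout points lie above the control points for every serine and one-carbon enzyme and every tRNA synthetase drawn. Among other amino acid enzymes they lie above the control points or overlap them. Among ATF4 arm factors and transporters they lie above, below or overlap.

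The composite element that ATF4 binds together with C/EBP proteins has the core TGATGNAA, and members of these role groups were searched for it on both strands. The window ran from 250 bases before to 50 bases after each RefSeq transcript start (GRCm38.p6), and 34 members had a window. The core, or its reverse complement TTNCATCA, was present for 13 of these 34 (38.2%), against 4.51% of the 27025 genes with a window and 3.97% of all 32851 windows of the same length. The list holds genes chosen as ATF4-regulated, so this share describes the choice of genes. The promoters of 6 members are shown because their genes went different ways in the comparison: Asns, Aars and Tars rose, Slc7a11 fell, and Chac1 and Trib3 were not called. They are written 5′ to 3′ on the strand of the gene, with matches in capitals.
Asns (asparagine synthetase), chr6:7693160-7693459, minus strand: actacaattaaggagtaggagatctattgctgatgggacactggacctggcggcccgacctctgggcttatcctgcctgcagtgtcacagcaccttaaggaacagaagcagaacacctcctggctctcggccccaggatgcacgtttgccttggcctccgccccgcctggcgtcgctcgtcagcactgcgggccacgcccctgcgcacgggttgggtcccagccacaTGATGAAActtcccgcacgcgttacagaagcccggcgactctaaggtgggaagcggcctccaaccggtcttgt
Aars (alanyl-tRNA synthetase), chr8:111033592-111033891, plus strand: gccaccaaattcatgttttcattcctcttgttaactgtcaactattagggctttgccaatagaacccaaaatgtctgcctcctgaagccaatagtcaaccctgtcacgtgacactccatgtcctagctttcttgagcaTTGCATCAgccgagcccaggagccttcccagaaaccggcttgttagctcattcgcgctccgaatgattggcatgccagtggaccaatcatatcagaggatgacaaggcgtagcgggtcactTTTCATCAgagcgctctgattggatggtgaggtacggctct
Tars (threonyl-tRNA synthetase), chr15:11399609-11399908, minus strand: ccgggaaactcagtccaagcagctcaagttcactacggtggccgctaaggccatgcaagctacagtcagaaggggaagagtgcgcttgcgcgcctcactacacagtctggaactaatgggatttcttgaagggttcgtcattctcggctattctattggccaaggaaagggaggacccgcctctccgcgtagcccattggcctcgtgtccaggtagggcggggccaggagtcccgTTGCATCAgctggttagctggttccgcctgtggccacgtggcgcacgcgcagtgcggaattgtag
Slc7a11 (cystine transporter), chr3:50443564-50443863, minus strand: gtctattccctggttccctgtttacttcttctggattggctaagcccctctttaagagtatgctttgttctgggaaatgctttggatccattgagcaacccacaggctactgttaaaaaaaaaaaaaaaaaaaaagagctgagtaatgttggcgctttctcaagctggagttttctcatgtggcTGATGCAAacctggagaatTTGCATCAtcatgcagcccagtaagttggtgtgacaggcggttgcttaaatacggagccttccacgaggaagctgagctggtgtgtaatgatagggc
Chac1 (glutathione-degrading enzyme), chr2:119350992-119351291, plus strand: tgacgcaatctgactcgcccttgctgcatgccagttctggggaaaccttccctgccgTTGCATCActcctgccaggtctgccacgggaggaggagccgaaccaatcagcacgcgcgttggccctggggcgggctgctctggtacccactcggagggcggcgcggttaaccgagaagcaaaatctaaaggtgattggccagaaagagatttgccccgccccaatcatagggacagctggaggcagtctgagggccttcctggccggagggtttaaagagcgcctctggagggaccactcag
Trib3 (pseudokinase), chr2:152344011-152344310, minus strand: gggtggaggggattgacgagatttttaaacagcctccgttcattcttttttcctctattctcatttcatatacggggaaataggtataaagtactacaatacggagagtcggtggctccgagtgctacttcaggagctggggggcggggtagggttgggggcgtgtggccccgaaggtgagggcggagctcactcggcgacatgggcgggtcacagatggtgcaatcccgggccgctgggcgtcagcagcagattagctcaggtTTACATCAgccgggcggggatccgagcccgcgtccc

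Positions in these windows are counted from 1 at the 5′ end. The match of Asns began at base 228 and that of Tars at base 236. Slc7a11 had a match in each orientation, at bases 185 and 204, and Aars had matches at bases 139 and 260. Those of Chac1 and Trib3 began at bases 58 and 265. Among the role groups the core was present for 5 of 7 tRNA synthetases with a window, 4 of 9 ATF4 arm factors (Trib3, Nupr1, Chac1 and Vldlr), 2 of 4 other amino acid enzymes (Asns and Pycr1), 2 of 6 transporters (Slc7a11 and Slc1a4) and 0 of 8 serine and one-carbon enzymes. By call, it was present for 6 of 18 members that rose, 3 of 7 that fell and 4 of 8 that were not called. A match is a run of letters, and binding was not measured.

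Among the ATF4 arm, the 9 transcription factors and effectors of the stress response, 1 member rose, 4 fell and 4 were not called, with a median log2 change of -0.23. The shares that rose and fell were 11.1% and 44.4%, beside 34.0% and 35.8% of all genes tested. Without Ad-GFP replicate 2, 4 rose and 5 fell, and 2 rose with no low-count filter, no robust dispersion or a replicate block. Atf4 itself, at chr15:80255184-80257541, stood at 320.4, 358 and 287 CPM in the controls and 359, 355 and 356 CPM in the knockout. The knockout libraries lay within the control range or just above it, close to control replicate 2, and Atf4 was not called (0.15 ± 0.08, adjusted p = 0.147). Atf5, a related leucine zipper factor, was 73.3, 82.9 and 68.4 CPM in the controls and 76.8, 79.5 and 78.5 CPM in the knockout, and was not called (0.06 ± 0.06, adjusted p = 0.369). For both genes the 3 knockout libraries lay closer together than the 3 control libraries. Atf5 shares 82 exon bases with Nup62 on the opposite strand, which rose by 0.55 ± 0.05, so its count is uncertain.

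Cebpb (chr2:167688915-167690418), a leucine zipper partner of ATF4, had the largest fall of the group. Its level was 92.3, 98.7 and 95.8 CPM in the controls and 50.9, 56.7 and 54.6 CPM in the knockout, a log2 change of -0.82 ± 0.04, adjusted p = 1.12e-13. Every knockout library was below every control library. Cebpg, another partner, was 61.3, 65.2 and 63.0 CPM in the controls and 53.8, 54.1 and 54.1 CPM in the knockout and fell less (-0.23 ± 0.04, adjusted p = 2.12e-05). Cebpb shares 312 exon bases with Tmem189 on the opposite strand, which rose (0.30 ± 0.05), and the sources used here do not say whether counting used strand. The count of Cebpb is therefore uncertain. Ddit3, which encodes the stress factor CHOP, was the member that rose, at 22.2, 21.9 and 19.7 CPM in the controls and 24.9, 25.1 and 24.0 CPM in the knockout. The gap between the groups was small (0.21 ± 0.06, adjusted p = 0.00234). Ddit3 shares 68 exon bases with the oppositely oriented Mars, which also rose (0.48 ± 0.04), so its count is uncertain.

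Nupr1, a stress-induced chromatin protein, fell from 45.9, 48.8 and 44.9 CPM in the controls to 35.5, 32.6 and 37.8 CPM in the knockout (-0.40 ± 0.05, adjusted p = 7.71e-07). Vldlr, a lipoprotein receptor that ATF4 induces, was 49.4, 49.7 and 42.03 CPM in the controls and 35.7, 35.5 and 37.5 CPM in the knockout (-0.38 ± 0.06, adjusted p = 3.94e-06). Both groups were separate for these genes. Chac1, which degrades glutathione, stood at 11.4, 14.6 and 8.75 CPM in the controls and 12.3, 12.5 and 11.0 CPM in the knockout (0.02 ± 0.17, adjusted p = 0.929). The knockout values fell inside the control range. Trib3, a pseudokinase that feeds back on ATF4, was 15.5, 22.5 and 12.5 CPM in the controls and 12.7, 11.3 and 10.7 CPM in the knockout. Its control replicates differed by 1.81-fold from lowest to highest, and it was not called (-0.57 ± 0.25, adjusted p = 0.105). The controls of Trib3 and Chac1 were the most variable of the group, with coefficients of variation of 30.7% and 25.4%, against 8.98% and 6.77% in the knockout.

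Serine and one-carbon enzymes rose together. All 9 rose, beside 34.0% of all genes tested, with a median log2 change of 0.99. Knockout libraries lay above control libraries for each of the 9, beside 35.4% of all genes tested. Psat1 (chr19:15904678-15947337), the aminotransferase of serine synthesis, was the largest, at 282, 307 and 223 CPM in the controls and 725, 736 and 726 CPM in the knockout. This was a log2 change of 1.43 ± 0.13, adjusted p = 0.000466, and the highest knockout library exceeded the lowest by 1.01-fold. Phgdh (chr3:98313170-98339990), the dehydrogenase that opens the pathway, was 41.7, 45.4 and 33.0 CPM in the controls and 109.8, 100.1 and 106 CPM in the knockout (1.38 ± 0.11, adjusted p = 8.16e-05). Psph, the phosphatase that completes it, rose less (0.53 ± 0.07, adjusted p = 2.16e-05). The 3 steps of serine synthesis thus rose by 2.61-fold, 2.69-fold and 1.44-fold in pathway order.

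The count of Phgdh itself is uncertain. The annotation holds 20 other genes with a transcript that matches it over at least 200 bases at 90% identity or more, and 15 of these genes are in the table. Together with Phgdh these held 21.7% of their shared counts on Phgdh itself, and the processed pseudogene Gm7901 held more counts than Phgdh (31611 against 11800) and rose by 1.38 ± 0.09. Summed over Phgdh and these copies, the counts were 4014, 5253 and 3015 in the control libraries and 14515, 14620 and 12893 in the knockout libraries. The sum, added as a check after the data were seen, rose by 1.41 on the log2 scale (adjusted p = 5.46e-05). Psph shares 452 exon bases with Cct6a on the opposite strand, which rose by 0.60 ± 0.03, so the count of Psph is uncertain too.

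Mthfd1 (chr12:76255298-76319803), the cytosolic enzyme that interconverts folate-bound carbon units, rose with a small error, from 138, 142 and 130.4 CPM in the controls to 304, 299 and 299.8 CPM in the knockout (1.14 ± 0.03, adjusted p = 6.62e-18). Mthfd2 (chr6:83305691-83325908), its mitochondrial counterpart, was 108, 122 and 89.4 CPM in the controls and 228, 228 and 219.8 CPM in the knockout (1.07 ± 0.12, adjusted p = 0.000832). The control libraries of Mthfd2 were spread over 1.37-fold and those of Mthfd1 over 1.09-fold, and both genes were separate between the groups. The mitochondrial serine hydroxymethyltransferase Shmt2 rose by 0.96 ± 0.10, adjusted p = 0.000631, and Mthfd1l, which releases formate, by 0.31 ± 0.06, adjusted p = 0.000995. Shmt1, the cytosolic hydroxymethyltransferase, was near the lower limit, with 24 to 31 counts per control and 60 to 87 per knockout library (0.99 ± 0.21, adjusted p = 0.000288). Aldh1l2, a mitochondrial formyltetrahydrofolate dehydrogenase, had 19 to 23 and 39 to 68 counts (0.86 ± 0.24, adjusted p = 0.00311). Aldh1l2 shares 1056 exon bases with D10Wsu102e, whose count was 4047 over the controls and 7372 over the knockout libraries, and Shmt1 shares 184 with Smcr8, so both values are uncertain.

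Other enzymes of amino acid metabolism split. Cth (chr3:157894248-157925077), which makes cysteine from cystathionine, had the largest change of all 42 tested members. It rose from 3.56, 4.46 and 2.70 CPM in the controls to 13.4, 12.2 and 13.5 CPM in the knockout, a log2 change of 1.83 ± 0.12, adjusted p = 1.47e-11. Asns (chr6:7675169-7693254), which makes asparagine, rose from 121, 135 and 106 CPM in the controls to 169, 173 and 166 CPM in the knockout (0.48 ± 0.09, adjusted p = 0.00358). Aldh18a1, which opens proline synthesis, was 209.9, 229 and 183 CPM in the controls and 228, 229 and 221 CPM in the knockout and was not called (0.12 ± 0.08, adjusted p = 0.219). Pycr1, the last step of proline synthesis in mitochondria, was 18.9, 21.3 and 17.4 CPM in the controls and 18.8, 17.0 and 16.9 CPM in the knockout (-0.14 ± 0.07, adjusted p = 0.0906). Cbs, which makes the cystathionine that Cth cleaves, did not pass the filter, with 2 counts over the 3 controls and 7 over the 3 knockout libraries.

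**Figure D2:**
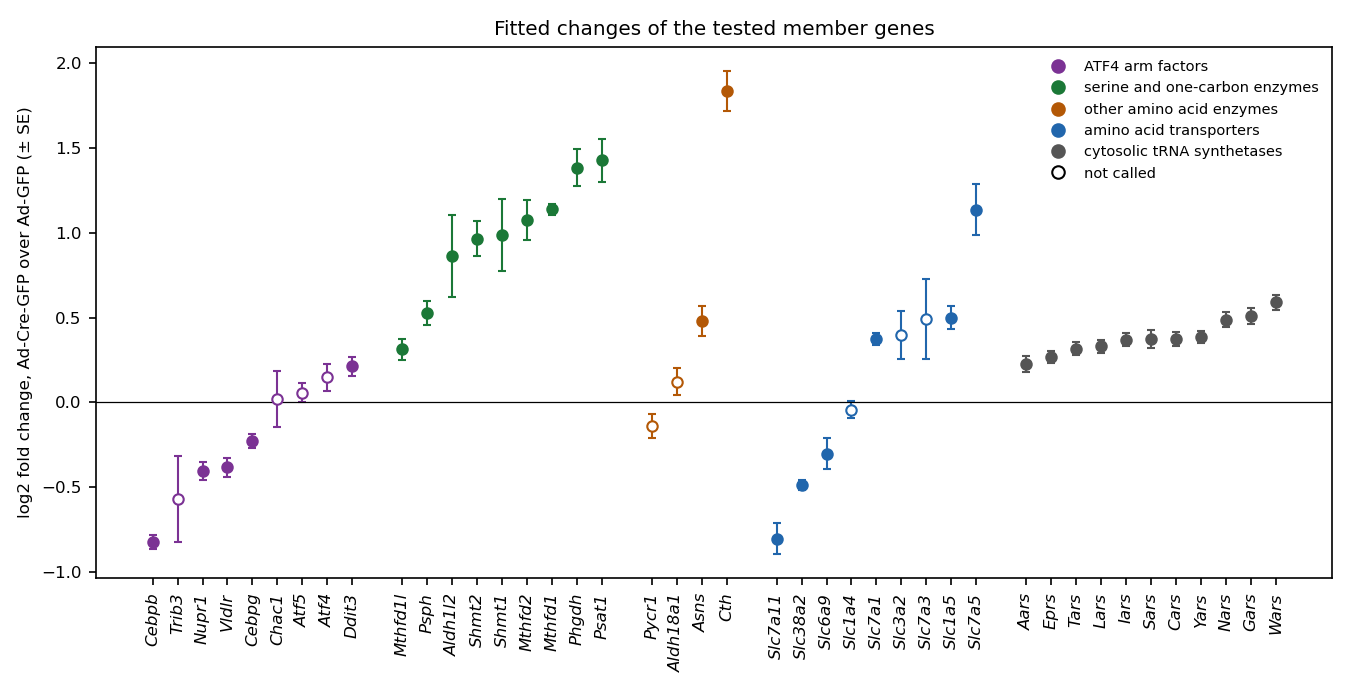
Fitted log2 fold changes (Ad-Cre-GFP over Ad-GFP) of the 42 tested members with their standard errors, grouped by role and ordered by size within each group. Filled points were called at an adjusted p under 0.05. Cth (1.83) and Psat1 (1.43) are highest, and Cebpb (-0.82) and Slc7a11 (-0.80) are lowest.

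Of 9 amino acid transporters tested, 3 rose, 3 fell and 3 were not called, shares close to the 34.0% and 35.8% of all genes. Without Ad-GFP replicate 2, 5 rose and 2 fell. Slc7a5 (chr8:121881150-121907694), the light chain of the large neutral amino acid exchanger, rose most, from 304, 350.4 and 242 CPM in the controls to 668, 680.2 and 625 CPM in the knockout (1.13 ± 0.15, adjusted p = 0.00235). Slc3a2, the heavy chain CD98 that pairs with Slc7a5, was 245, 291 and 206 CPM in the controls and 332, 335 and 313 CPM in the knockout. Each knockout library lay above each control library, but the controls were spread over 1.41-fold and the gene was not called (0.40 ± 0.14, adjusted p = 0.0608). Slc7a11 (chr3:49892526-50443614), the light chain of the cystine-glutamate exchanger that also pairs with Slc3a2, fell from 30.9, 35.1 and 26.4 CPM in the controls to 18.0, 18.6 and 16.8 CPM in the knockout (-0.80 ± 0.09, adjusted p = 7.5e-06). The light chains of these 2 exchangers thus moved in opposite directions, both without overlap between the groups. An annotated transcript of Slc7a11 matches alpha-tubulin genes over 237 bases, which makes its count uncertain.

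Slc1a5, a glutamine transporter, rose from 20.5, 21.6 and 18.3 CPM in the controls to 30.9, 28.3 and 26.6 CPM in the knockout (0.50 ± 0.07, adjusted p = 1.09e-06), and Slc7a1, which carries cationic amino acids, rose by 0.37 ± 0.04, adjusted p = 2.76e-08. Slc38a2 (chr15:96687392-96699730), a sodium-coupled neutral amino acid transporter, fell from 354, 352 and 366 CPM in the controls to 255, 252 and 257 CPM in the knockout (-0.49 ± 0.03, adjusted p = 2.03e-12). Slc6a9, a glycine transporter that shares 1429 exon bases with Ccdc24 (9 counts), was 10.5, 11.8 and 9.65 CPM in the controls and 8.996, 7.86 and 9.27 CPM in the knockout (-0.30 ± 0.09, adjusted p = 0.00566), and its call was lost without Ad-GFP replicate 2 (log2 change -0.21, adjusted p = 0.0650). Slc1a4, which carries neutral amino acids including serine, was 37.8 to 43.5 CPM in the controls and 38.5 to 40.9 CPM in the knockout (-0.04 ± 0.05, adjusted p = 0.481). The cationic transporter Slc7a3 was 0.912, 1.37 and 1.11 CPM in the controls and 1.40, 1.34 and 2.12 CPM in the knockout, with 20 to 58 counts per library, and was not called (0.49 ± 0.24, adjusted p = 0.068).

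All 11 listed cytosolic tRNA synthetases rose by small and similar amounts, without overlap between the groups. Over all genes tested, 34.0% rose, and 35.4% had every knockout library above every control library. These enzymes load tRNAs with their amino acids. Their log2 changes lay between 0.23 (Aars) and 0.59 (Wars), with a median of 0.37. Wars (tryptophan, chr12:108860030-108894174) rose from 50.6, 52.8 and 45.7 CPM in the controls to 76.8, 74.6 and 73.6 CPM in the knockout (0.59 ± 0.04, adjusted p = 1.5e-10). Gars (glycine, chr6:55038007-55079500) was 321, 341 and 292 CPM in the controls and 463, 457 and 439 CPM in the knockout (0.51 ± 0.05, adjusted p = 4.73e-07). Nars (asparagine) was 452, 488 and 419 CPM in the controls and 623, 642 and 643 CPM in the knockout (0.49 ± 0.04, adjusted p = 8.25e-08), and Yars (tyrosine, chr4:129189760-129219607) was 101.97, 108 and 98.3 CPM in the controls and 136, 135 and 132 CPM in the knockout (0.39 ± 0.04, adjusted p = 2.18e-09). The rises amounted to 1.31-fold to 1.505-fold in these 4. The other 7 (Aars, Sars, Eprs, Iars, Lars, Tars and Cars) rose by 1.17-fold to 1.29-fold, with adjusted p-values from 1.49e-08 to 0.00157 in edgeR's test. Aars shares 1326 exon bases with Exosc6 on the same strand, which held 0 counts, so the count of Aars is uncertain. Summed over the 11, the level without library scaling factors was 2229 to 2558 CPM in the controls and 3025 to 3095 CPM in the knockout. Iars has a pseudogene, Gm4849, that matches it at 94.7% identity over 2251 bases but held 1486 counts against 35075.

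The members were more spread among the control libraries than among the knockout libraries. Ad-GFP replicate 3 was the lowest control for 36 of 42 tested members, against 35.3% of all genes tested. The pattern was not limited to them: replicate 3 was also the lowest control for 10 of 12 other cytosolic synthetases and scaffold genes and for 8 of 11 other ATF4 target genes described below. Among members the exceptions were Cebpb, Cebpg, Shmt1, Aldh1l2, Slc7a3 and Slc38a2. Replicate 2 was highest and replicate 3 lowest, with replicate 1 between them, for 35 of the 42, against 21.1% of all genes and 8 of the 11 other ATF4 target genes. Among members with a mean of at least 20 CPM it was 30 of 34, against 25.4% of the 7638 genes at that level. All 11 tRNA synthetases followed this order, as did 7 of 9 serine and one-carbon enzymes. The library totals of the controls followed the same order (25363462, 21546287 and 18690235 counts), and its part in the values was not tested. The knockout libraries, whose totals also ran highest in replicate 2 and lowest in replicate 3, showed that order for 11 of 42 members, against 17.4% of all genes. The median coefficient of variation of members was 9.15% in the controls and 2.28% in the knockout, beside 5.33% and 4.16% over all genes and 6.67% and 1.56% over the other ATF4 target genes.

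**Figure D3:**
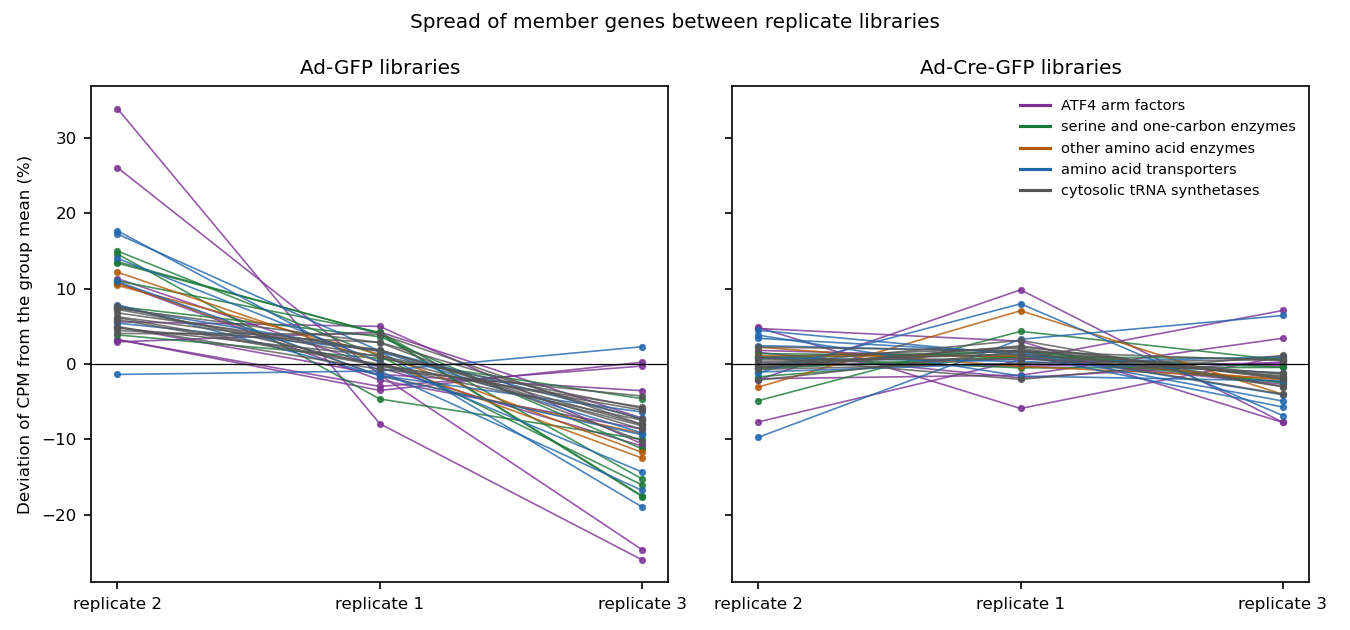
Deviation of each library's CPM from its group mean, in percent, for the 38 members with a control mean of at least 10 CPM, with 1 line per gene coloured by role. Lines join values of 1 gene and the replicates have no order in time. Most control lines are highest at replicate 2 and lowest at replicate 3, and most knockout lines stay near 0.

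Several calls changed when a control library was left out. Without Ad-GFP replicate 2, 32 members rose and 7 fell. Atf4 (log2 change 0.23), Atf5 (0.14), Chac1 (0.23), Aldh18a1 (0.20), Slc3a2 (0.53) and Slc7a3 (0.68) were then called higher, and Trib3 (-0.28) lower. Without Ad-GFP replicate 3, 26 rose and 9 fell, and Trib3 (-0.73) and Pycr1 (-0.20) were called lower. Without that library, Chac1 stood at -0.13 and Atf5 at -0.00066. Psat1 kept its call without each library in turn, with log2 changes from 1.31 to 1.53, as did Slc7a5, from 1.01 to 1.27.

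Per kilobase of annotated exon, Atf4 had the highest level of the members in control cells, at 136 ± 15.2 CPM per kilobase. It was followed by Nars (104 ± 7.88) and Gars (102.1 ± 7.93), which did not differ beyond their spread, and by Slc7a5 (80.6 ± 14.6). In knockout cells Slc7a5 (177 ± 7.74) and Psat1 (171 ± 1.42) were highest, with a gap smaller than the spread of Slc7a5, and Atf4 (151 ± 0.908), Nars (146 ± 2.59) and Gars (145 ± 3.87) came next. In control cells Psat1 (63.6 ± 10.2) could not be ordered against Slc3a2 (70.1 ± 12.1) or Cebpb (63.6 ± 2.15), whereas in knockout cells Slc3a2 stood at 92.6 ± 3.30 and Cebpb at 35.9 ± 1.96. The place of Phgdh depends on its copies: its own counts gave 16.1 ± 2.55 and 42.3 ± 1.96, and summed with the copies they gave 73.5 ± 9.19 in control and 195 ± 5.37 in knockout cells, above Slc7a5 in the latter. Aldh1l2, Slc7a3 and Shmt1 were lowest in both groups.

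Genes that surround the members in the same pathways were read from lists of the same kind. Of 14 genes for eIF2 kinases and the eIF2 cycle, 8 rose (57.1%) and 3 fell (21.4%), beside 34.0% and 35.8% of all genes tested. The kinases went different ways. Eif2ak3, the kinase PERK of the endoplasmic reticulum, fell from 58.9 ± 2.33 to 31.0 ± 0.515 CPM (-0.93 ± 0.04, adjusted p = 3.73e-14), Eif2ak2, the double-stranded RNA kinase PKR, rose from 35.0 ± 1.14 to 58.5 ± 3.50 CPM (0.74 ± 0.05, adjusted p = 9.06e-12), and Eif2ak4, the amino acid sensor GCN2, was not called (0.06 ± 0.05, adjusted p = 0.279), nor was the heme-sensing Eif2ak1 (-0.07 ± 0.05, adjusted p = 0.176). Subunits of the exchange factor eIF2B rose, with Eif2b3 at 0.87 ± 0.06 and Eif2b1 at 0.63 ± 0.05, except Eif2b4 (0.06 ± 0.06, adjusted p = 0.396).

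Of 14 other reported ATF4 target genes, 11 were tested, 6 rose (54.5%) and 2 fell (18.2%), beside 34.0% and 35.8% of all genes tested. The mTOR inhibitor gene Ddit4 fell most, from 309 ± 5.23 to 41.7 ± 1.55 CPM (-2.89 ± 0.04, adjusted p = 4.89e-24). Atf3, a stress-induced factor, rose from 3.45 ± 1.21 to 5.32 ± 0.367 CPM (0.60 ± 0.18, adjusted p = 0.00927), Sesn2, which also restrains mTOR, by 0.40 ± 0.05, and the aspartate aminotransferase Got1 by 0.31 ± 0.04. Stc2, Gpt2 and Lonp1 were not called. Gdf15, with 5 counts over the controls and 23 over the knockout libraries, was not tested, nor were Fgf21 and Adm2.

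Of 21 genes for folate, methionine, glycine cleavage and serine transport, 19 were tested, 10 rose and 6 fell. These shares were 52.6% and 31.6%, beside 34.0% and 35.8% of all genes tested. Slc19a1, the reduced folate carrier, rose from 14.8 ± 1.26 to 37.4 ± 1.29 CPM (1.33 ± 0.06, adjusted p = 1.64e-14), whereas Slc46a1, the proton-coupled folate transporter, fell from 8.73 ± 1.13 to 3.68 ± 0.611 CPM (-1.24 ± 0.13, adjusted p = 1.92e-08). Slc25a32, a mitochondrial folate carrier, rose by 0.98 ± 0.06. All 8 purine synthesis genes rose, beside 34.0% of all genes tested, with a median log2 change of 0.72. Atic, the last enzyme of the route to inosine monophosphate, rose from 129.8 ± 4.46 to 241 ± 3.76 CPM (0.89 ± 0.03, adjusted p = 3.14e-16), and Pfas, Prps2 and Gart rose by 0.82, 0.80 and 0.74.

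The tRNA synthetases outside the member list were read by compartment. Of 12 other cytosolic synthetases and scaffold proteins, 10 rose, Qars fell (-0.39 ± 0.03) and Dars was not called (0.02 ± 0.03), with a median log2 change of 0.46. The shares that rose and fell were 83.3% and 8.33%, beside 34.0% and 35.8% of all genes tested. The scaffold genes Eef1e1 (0.95 ± 0.05) and Aimp2 (0.75 ± 0.06) rose most, followed by Farsb (0.57 ± 0.04) and Vars (0.56 ± 0.04). Of 17 mitochondrial synthetases, 7 rose, 2 fell and 8 were not called, with a median of 0.16. The share that rose, 41.2%, was near the 34.0% of all genes tested, and 11.8% fell, beside 35.8%. Mars2 rose by 0.99 ± 0.07, Yars2 by 0.75 ± 0.06 and Sars2 by 0.48 ± 0.07, and Ears2 fell (-0.66 ± 0.07). The difference between the 2 sets was not tested.

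**Figure D4:**
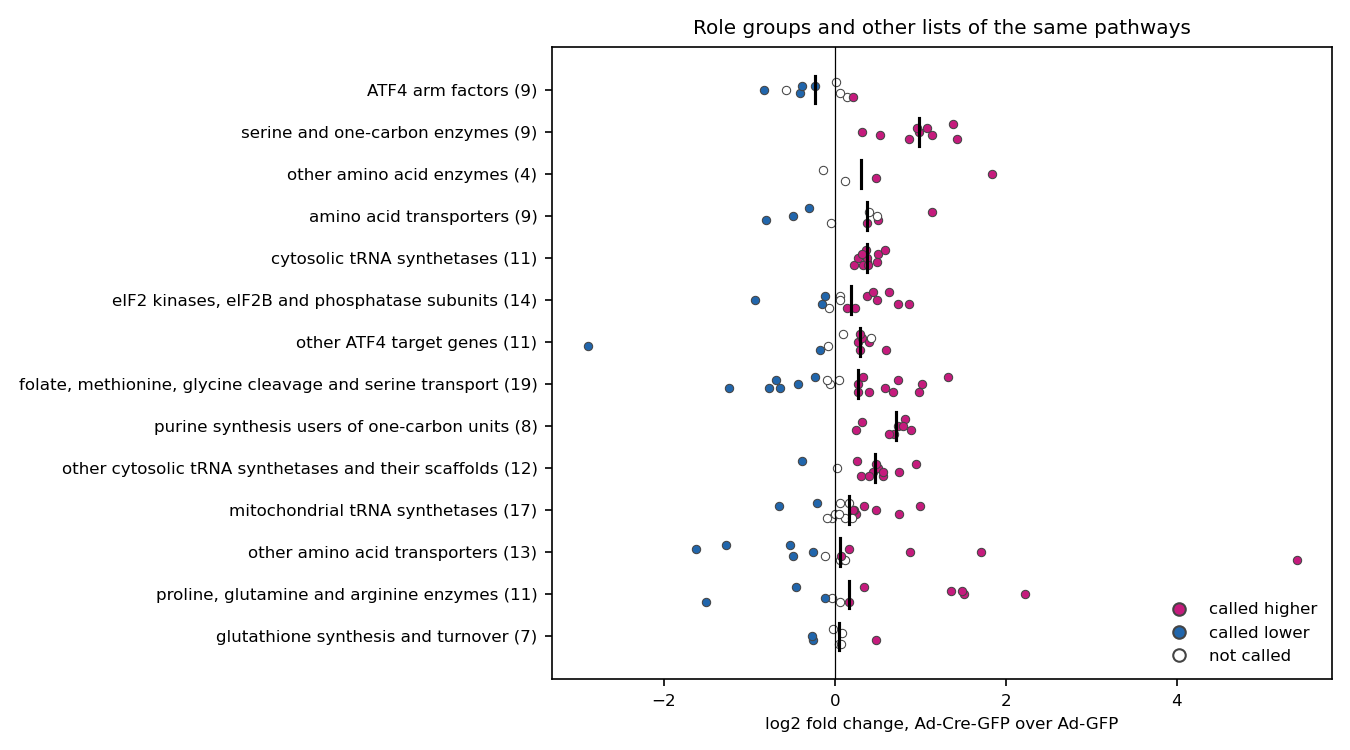
Log2 fold changes (Ad-Cre-GFP over Ad-GFP) of the tested genes in the 5 role groups and 9 other lists, with the number tested in parentheses and a black bar at each median. Magenta points were called higher, blue lower and white not called. Serine and one-carbon enzymes (median 0.99) and purine synthesis genes (0.72) have the highest medians, and ATF4 arm factors (-0.23) the lowest.

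Transporters outside the members had 5 rises and 5 falls among 13 tested of 17, shares close to the 34.0% and 35.8% of all genes, and 3 rises with DESeq2 or with a mean of at least 1 CPM. Slc6a6, the taurine transporter, was the most abundant and fell from 1307 ± 71.7 to 542 ± 5.40 CPM (-1.27 ± 0.04, adjusted p = 6.95e-18). Slc43a2, a neutral amino acid transporter, fell from 4.34 ± 0.371 to 1.40 ± 0.103 CPM (-1.62 ± 0.15, adjusted p = 3.75e-09). The glutamate transporter gene Slc1a3 had 5 counts over the 3 controls and 293 over the 3 knockout libraries, and Slc7a7 had 16 and 69. Enzymes of proline, glutamine and arginine metabolism had 6 rises (54.5%) and 3 falls (27.3%) among 11 tested, beside the same 34.0% and 35.8%. The glutamine synthetase gene Glul fell from 39.4 ± 4.68 to 13.8 ± 0.699 CPM (-1.50 ± 0.08, adjusted p = 5.44e-11). Odc1, which opens polyamine synthesis, rose from 117 ± 9.50 to 333 ± 6.12 CPM (1.51 ± 0.04, adjusted p = 2.5e-14), Ass1, of arginine synthesis, by 2.22 ± 0.19 and Prodh, of proline breakdown, by 1.49 ± 0.16. The glutathione list held 7 genes, and its 1 rise (0.48 ± 0.04) was that of Txnrd1, which encodes a thioredoxin reductase. The subunits of glutamate-cysteine ligase, Gclc (-0.26 ± 0.04) and Gclm (-0.26 ± 0.03), fell, and the other 4 genes were not called. The shares of this list that rose and fell were 14.3% and 28.6%, beside 34.0% and 35.8% of all genes tested.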

How the data were processed

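Poly(A)-enriched RNA of 3 Ad-GFP and 3 Ad-Cre-GFP libraries was analysed. Per the file headers, the deposited table holds a column of gene-level read counts for each library's BAM file, and its values are whole numbers. Kallisto 0.46.2, sleuth 0.30.1 and GRCm38 are named, without a role, per the submitters' processing notes. Neither the aligner nor the counter nor its use of strand is given in the sources used here. Symbols, positions and exon lengths came from GENCODE mouse release 21 (GRCm38), matched by gene ID for 48058 of 48440 rows. Some members share exons or near-identical copies (minimap2 2.31, at least 200 bases at 90% identity).

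The test was the quasi-likelihood test of edgeR 4.0.16 in R 4.3.3 (filterByExpr, TMM, robust, no replicate block), with Benjamini-Hochberg adjustment over 14811 genes. Single-gene adjusted p-values are from this test unless another setting is named. A log2 change is knockout over control, and its ± is an SE, obtained as the absolute change over the root of F. The fit was tested on simulated data. Levels are CPM after TMM, and sums over lists omit TMM. Depth was 18690235 to 30304033 counts, and 3 counts were 0.0990 to 0.161 CPM. The chi-square per gene between replicates was 2.04 to 4.27, against 1 for sampling noise, and all 6 libraries were used. P-values measure only how these libraries vary, which may be technical.

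The members and lists were chosen with earlier results of these data known. Per role group, library values are given for up to 4 called members with the largest change, for Atf4 and for members whose call changed with a setting; those of Ddit3 were added after its values were seen. Other lists name up to 4 called genes with the largest change, and their other named genes (Eif2ak4, Eif2ak1, Eif2b4, Qars, Dars and the genes given as not called or not tested) were added after their values were seen. A gene that this rule would name is not reported here. Alternatives were RLE and upper-quartile scaling, 2 other filters, DESeq2 1.42.0, limma-voom (limma 3.58.1), no robust dispersion, no mitochondrial genes, thinning to the smallest library, a block by replicate number, and leaving out libraries in turn. Summing Phgdh with its copies was added after seeing the data.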

Additional observations from a re-analysis of the deposited data

How the results depend on the processing

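Under each of the 16 alternatives, members called higher numbered 26 to 32 and members called lower 7 to 9, and the median log2 change of members was 0.30 to 0.41, against 26, 7 and 0.37. Thinned to the smallest library, 26 rose and 7 fell. No called member changed sign. 1 called member, Slc6a9, lost its call, without Ad-GFP replicate 2 (adjusted p = 0.0650). ATF4 arm factors called higher numbered 2 with no low-count filter, with no robust dispersion and with the replicate block, against 1, and 1 to 4 when 1 library was left out. Other amino acid enzymes called lower numbered 0 to 1, and transporters called higher 3 to 5, when 1 library was left out. Whether the replicate numbers pair the libraries is not known. Correlations of same-numbered deviations across 14811 genes were 0.005 to 0.051. Same-numbered libraries correlated best with each other for replicates 1 and 2 but not for replicate 3, and correlations this small cannot decide the pairing. With the replicate block 29 members rose and 8 fell. Atf4, Trib3, Aldh18a1 and Slc3a2 were then called in addition (edgeR adjusted p = 0.0387, 0.0306, 0.0105 and 0.0157). Trib3 and Slc3a2 were also called with no robust dispersion (edgeR adjusted p = 0.00200 and 0.000161), and Slc3a2 with DESeq2 (adjusted p = 0.00833). Atf4 was also called with no low-count filter and with no robust dispersion (edgeR adjusted p = 0.000551 and 0.0192), and Aldh18a1 with no low-count filter (adjusted p = 0.00470). Changes of sign were limited to members not called: Atf5, from -0.00066 (without Ad-GFP replicate 3) to 0.14, Chac1, from -0.13 to 0.23 when 1 library was left out and below 0 without Ad-GFP replicate 1 or 3 or Ad-Cre-GFP replicate 2, and Slc1a4, from -0.085 to 0.021 (without Ad-GFP replicate 2). Slc7a3 was also called without Ad-Cre-GFP replicate 1 or 2 (edgeR adjusted p = 0.0459 and 0.0332), and Pycr1 without Ad-Cre-GFP replicate 1 (edgeR adjusted p = 0.0491). The cause was not tested. Among other lists, amino acid transporters called higher fell from 5 to 3 with a mean of at least 1 CPM, where fewer genes were tested, and with DESeq2, and mitochondrial synthetases called lower from 2 to 1 with no low-count filter, with DESeq2 and without each of 3 libraries (Ad-GFP replicate 3, Ad-Cre-GFP replicates 2 and 3). Depth limits Cbs, Shmt1, Aldh1l2 and Slc7a3, which had at most 87 counts in any library.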
